A study of Mus musculus with 15 samples.

Results

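Interferon-responsive microglia were examined as a small set of barcodes in 1 single-cell library of Atg7-deleted microglia. Type I interferons signal through the IFNAR1 and IFNAR2 receptor chains and the kinases JAK1 and TYK2. These kinases activate transcription factors, STAT2 among them, which bind with IRF9 to the interferon-stimulated response element (ISRE) in the promoters of interferon-stimulated genes. The products of those genes sense foreign nucleic acid, block viral replication, attract leukocytes and raise antigen presentation. In brain, microglia with such a program are known as a small population that is seen in ageing, after viral infection and around amyloid.

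Both single-cell libraries came from microglia of C57BL/6 mice sorted as CD11b-high and CD45-low, with 1 library per genotype. The mice carried the floxed Atg7 alleles (ATG7FF) with Cx3cr1CreER, called cKO here, or without Cre, called control. Atg7 encodes the E1-like enzyme of the autophagy conjugation systems, and Cx3cr1CreER drives tamoxifen-inducible Cre in microglia and other cells that express Cx3cr1. Cre was present in cKO mice only, so effects of the Cre allele and of Atg7 loss cannot be told apart. Tamoxifen (1.5 mg) was given to all mice at 2 months and tissue was taken at 8 months, and cells were pooled from 4 cKO or 3 control forebrains. Bulk forebrain RNA came from mice of the same genotypes and treatment that also carried 5xFAD, a set of amyloid-forming human transgenes, with 7 cKO and 6 control libraries. Whether every bulk library came from its own mouse is not spelled out in the labels, so the bulk p-values rest on the spread among these libraries.

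An eligible barcode had at least 500 detected genes, at most 10% mitochondrial UMIs and at least 2000 UMIs (a UMI is 1 counted RNA molecule). Members were chosen by score, as the top 2% of eligible cKO barcodes by the summed UMIs of Ifit2, Ifit3, Isg15, Ifitm3, Oasl2 and Ifi204 per 10000 UMIs. There were 146 members of 7298 eligible cKO barcodes, of 9840 barcodes in the cKO library and of 16473 in both libraries. The members were selected on these 6 genes, so the levels of single rule genes are not given, and the scores and rule UMIs are a description of the choice. The 5 members nearest to the cut scored 4.801 to 4.866 UMIs per 10000, and the 5 nearest barcodes outside it scored 4.677 to 4.776. The cut therefore fell within a continuous range of scores.

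The score rested on few molecules in many members. Members held 1 to 102 rule UMIs each (median 4), and 67 of the 146 held at most 3. Only 1 of the 6 genes was detected in 29 members, 2 in 49, 3 in 23, 4 in 15, 5 in 14 and all 6 in 16. Among the other 7152 eligible barcodes, 2 had 3 of the genes and none had more. The 10 members with most rule UMIs held 40.1% of the 1574 in the set. Values are therefore also given for 78 members with 1 or 2 rule genes and for 45 members with 4 to 6, a division made on the same 6 genes. The other 23 members, with 3 rule genes, lie between these groups in number of genes.

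Depth differed little between members and the rest. Members had a median of 4712 UMIs and 2090 genes, and the other eligible barcodes 4894 UMIs and 2192 genes. The mean mitochondrial share was 1.17% in members and 1.10% in the others. Within the members, the median was 4018 UMIs with 1 or 2 rule genes and 5951 with 4 to 6. Whether depth contributed to the division by number of genes was not tested. The libraries shared 22 barcode sequences, none of them a member.

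All 12 microglia markers examined, among them P2ry12, Tmem119, Csf1r and Sall1, were detected in members. Their summed level was 25008 CPM (a UMI count per 1000000 UMIs of the group) in members and 28782 CPM in the others, a ratio of 0.87. It ran from 7796 to 44359 CPM over member barcodes. Defining genes of other immune cells were at or near 0, Csf3r and Cd79b apart. Of 8 border macrophage markers 6 had no UMI in members, Cd163 and Lyve1 among them, and the list summed to 14 UMIs, of which Mrc1 gave 13. Monocyte markers summed to 8 UMIs, with Ly6c2 at 0, and dendritic cell markers to 1. Lymphocyte markers gave 29 UMIs, all from Cd79b, with 9 of 10 genes at 0. The list stood at a ratio of 0.96 (0.64 to 1.38), and Cd79b had 1544 UMIs in the others. Neutrophil markers gave 154 UMIs, all from Csf3r, which was at 210.5 CPM in members and 193.8 CPM in the others. Without the barcodes that held at least 3 UMIs of these immune lists, Csf3r not counted, 143 members remained and the interferon ratio given below was 3.66. Cd79b was counted, and 2 members held at least 3 UMIs of the lymphocyte list. Lists of other brain cells were not at 0, with ratios to the other barcodes near 1. Astrocyte markers summed to 119 UMIs in members, 114 of them Slc1a3 (ratio 0.92, 0.76 to 1.10), with Gfap at 0. Oligodendrocyte markers gave 93 UMIs, mainly from Cnp (44), Mbp (24) and Mag (23), a ratio of 1.09 (0.88 to 1.34). Endothelial markers gave 32 UMIs, 31 of them Pecam1 (ratio 0.86, 0.58 to 1.21), with Cldn5 at 0, and neuron markers 1.

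Promoters are shown first, with the letters in front of the start sites of the genes highest in members. RefSeq promoter windows of GRCm38.p6 (250 bases before to 50 after a start site) were searched on both strands for the ISRE letters GAAANNGAAA, whose reverse complement is TTTCNNTTTC. The letters stood in 3.99% of 27025 genes and in 3.44% of 32851 windows. Of the 20 genes highest in members, named by the rule set out further on, 15 had a window and 11 of these held an ISRE. In the list of 114 interferon genes outside the rule, 48 of 91 genes with a window held one (52.7%). The share was 9 of 11 for the PYHIN family and 9 of 10 for the interferon-induced GTPases, but 1 of 3 for the chemokines, 5 of 19 for MHC class I and 0 of 4 for ISG15 conjugation. None of 11 homeostatic microglia genes with a window held one. The letters TTCNNNGAA, known as the gamma-activated site, stood in 9.55% of all genes and in 18 of the 91 interferon genes. Among the GTPases, which interferon gamma also induces, 6 of 10 held that site, and among the 15 leading genes none did. A match is a description of the letters and not a measured binding site.

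Stretches around the matches are printed from the gene's own strand, 5′ to 3′, all upstream of the start site, with the ISRE letters in capitals. The first 2 are Ifit1, at chr19:34640760-34640838 (plus strand), which blocks translation of viral RNA, and Rsad2, at chr12:26456538-26456597 (minus strand), which encodes viperin. The next 5 belong to PYHIN genes on the minus strand of chromosome 1, which encode relatives of the DNA sensor AIM2. They are Ifi206 (chr1:173491324-173491383), Ifi213 (chr1:173599311-173599370), Ifi214 (chr1:173536002-173536061), Ifi207 (chr1:173741816-173741875) and Ifi211 (chr1:173913049-173913108). The last is Bst2, at chr8:71537562-71537627 (minus strand), which encodes tetherin, the protein that holds budding virus at the cell surface.
Ifit1: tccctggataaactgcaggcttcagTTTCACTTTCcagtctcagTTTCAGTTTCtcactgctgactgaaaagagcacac
Rsad2: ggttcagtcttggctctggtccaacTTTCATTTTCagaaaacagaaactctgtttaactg
Ifi206: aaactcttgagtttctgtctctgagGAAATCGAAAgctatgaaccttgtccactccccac
Ifi213: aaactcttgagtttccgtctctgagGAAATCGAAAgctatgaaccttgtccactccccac
Ifi214: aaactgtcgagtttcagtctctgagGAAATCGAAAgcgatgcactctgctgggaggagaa
Ifi207: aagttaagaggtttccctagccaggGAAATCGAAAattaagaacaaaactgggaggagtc
Ifi211: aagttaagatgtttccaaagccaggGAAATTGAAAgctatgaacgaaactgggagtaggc
Bst2: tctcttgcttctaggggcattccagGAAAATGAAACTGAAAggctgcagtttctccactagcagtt

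Ifit1 held 2 matches and Bst2 held 2 that overlap. The PYHIN sites ended 27 to 69 bases before the start site. Ifi206 and Ifi213 were equal at 59 of the 60 printed bases, and Ifi207 and Ifi211 at 50 of 60. Near copies such as these are not independent cases in the share of leading genes with an ISRE. Such near copies also concern the counting: reads that fit several PYHIN genes cannot be assigned to 1 of them, so the split between these genes is uncertain. The rule gene Ifi204 is itself a PYHIN gene, and the rule gene Ifit3 is a relative of Ifit3b, a leading gene. Whether reads of these rule genes raised the levels of their relatives in members was not tested.

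Interferon genes outside the rule were higher in members as a group. The list of 114 genes in the table summed to 14727 CPM in members and 4059 CPM in the other eligible barcodes, a ratio of 3.63 (95% interval 3.56 to 3.70). With the top 5% of barcodes as members it was 2.26, and with the top 1% 5.12. All intervals here are exact and describe counting error alone. No test is given, because the cKO library has no replicate, and the contrast is the one that chose the members. Of the 114 genes, 106 had a UMI in members and 64 reached 10 CPM over all eligible barcodes. Of these 64, 55 were at least 1.5-fold higher in members and none was 1.5-fold lower, with a median log2 ratio of 1.74. Over all 8526 genes at that level, 4.42% were 1.5-fold higher and 7.61% lower, with a median of -0.03. Of the 64 genes, 4 (Ccl5, Cxcl10, Gbp2 and Gbp3) reached 10 CPM only with the members' UMIs.

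The level of these genes per barcode followed the number of rule genes. In single members the list ran from 1946 to 101925 CPM with a median of 9782, and in the others from 0 to 19043 CPM with a median of 3884. The median was 5692 CPM in members with 1 or 2 rule genes, 10715 with 3 and 19044 with 4 to 6. The 99th percentile of the others was 8472 CPM, and it was passed by 22 of 78, 17 of 23 and 43 of 45 members of these groups. Summed ratios to the other barcodes were 1.88 (1.81 to 1.95), 2.52 (2.39 to 2.67) and 6.26 (6.11 to 6.42). Of the members with 1 or 2 rule genes, 56 of 78 thus lay at or below that percentile. Outside the set, the median was 3832 CPM in the 6288 barcodes with no rule UMI, 4309 in the 786 with 1 rule gene and 5257 in the 78 with 2 or more.

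**Figure D1:**
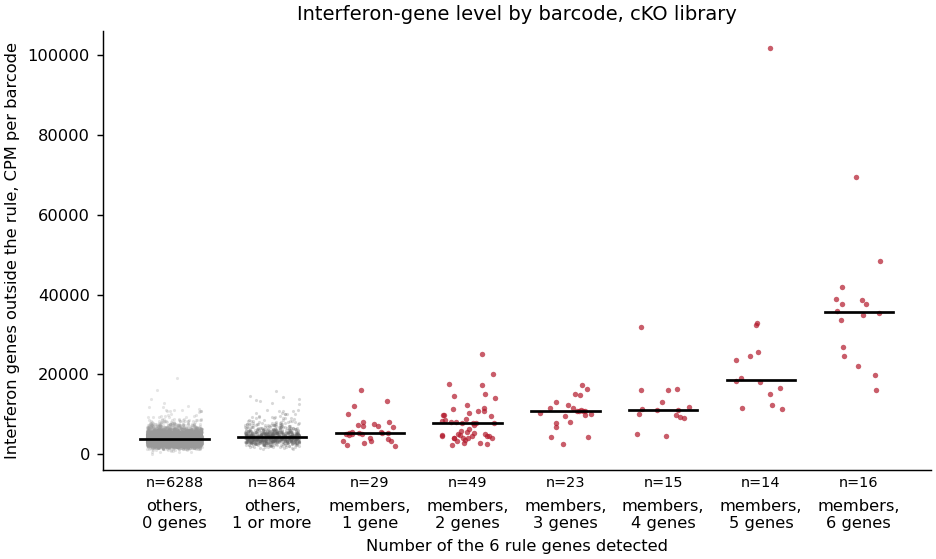
Level of the interferon genes outside the rule (CPM per barcode, linear axis) against the number of the 6 rule genes detected, for other eligible barcodes (grey) and members (red). Each point is 1 barcode, horizontal jitter is random and black lines are medians. The 16 members with all 6 rule genes lie mostly above the other barcodes, and members with 1 gene overlap them.

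The 20 leading genes were those with the highest lower bound of the ratio among genes with at least 10 UMIs in members. Of these, PYHIN genes gave 5 (Ifi206, Ifi207, Ifi211, Ifi213 and Ifi214), chemokines 3 (Cxcl13, Cxcl10 and Ccl5), and the remaining ones were Oasl1, Zbp1, Rsad2, Irf7, Ifit3b, Iigp1, Ifit1, Usp18, Slfn5, Ifi27l2a, H2-Eb1 and Gm26797. In the alternatives that changed the cuts, the score or the barcodes compared, all 20 stayed higher in members, with a lowest ratio of 13.1, for Ifi27l2a. The 20 were chosen by this ratio and the alternatives reused the same library and rule genes, so this describes the choice and is no test. Without its top barcode, Cxcl13 stood at 1.67 and H2-Eb1 at 6.91. Several of the 20 were nearly silent outside the set. Oasl1, an oligoadenylate synthetase-like protein, had 17 UMIs in 10 members and 1 UMI in the others, a ratio of 870 with an interval of 136 to 36361. All 10 of those members had 4 to 6 rule genes.

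**Figure D2:**
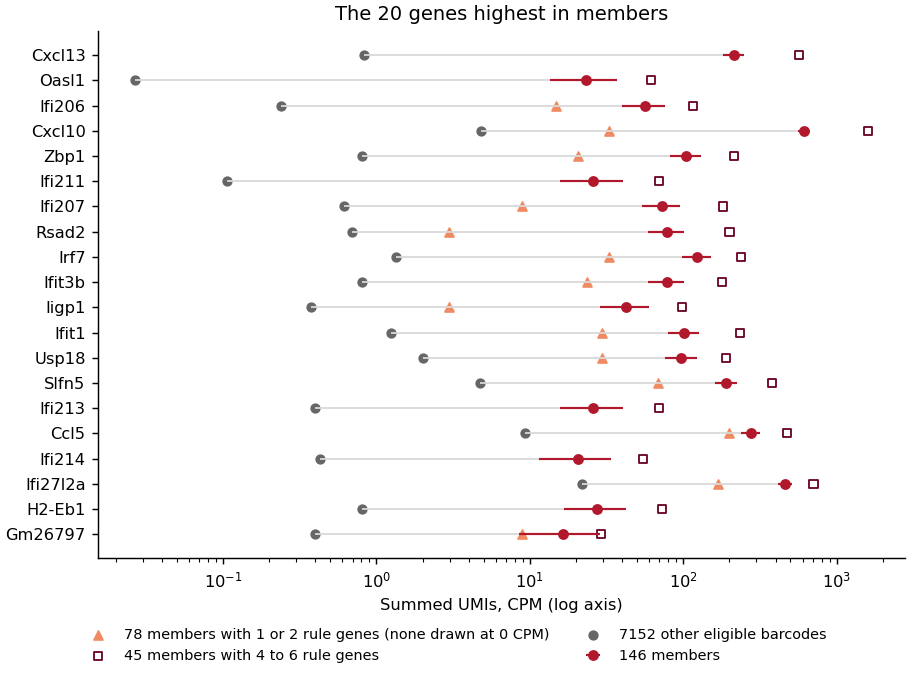
Summed level (CPM, log axis) of the 20 leading genes in 146 members (red circles with exact 95% Poisson intervals), in the 78 members with 1 or 2 rule genes (triangles), in the 45 with 4 to 6 (open squares) and in the 7152 other eligible barcodes (grey). Squares lie to the right of triangles for each gene that has both, and 6 genes have no triangle because those 78 members held no UMI.

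Receptors and ligands are the input of the pathway. The 9 interferon ligand genes in the list had no UMI in members or in the others. The 7 receptor and JAK genes together stood at 0.89 (0.84 to 0.94) of the other barcodes' level, and none passed 1.5-fold in either direction. Their sums were 1753 CPM in members and 1972 CPM in the others, and the lower sum lay mainly in Ifngr1. Of the 7 genes, 4 lay above 1, with a median log2 ratio of 0.04. Ifnar1 was at 69.7 CPM in members and 67.8 in the others, and Ifnar2 at 312 and 300 CPM. Ifngr1, the ligand-binding chain of the interferon gamma receptor, was at 849 CPM in members and 1073 in the others, a ratio of 0.79 (0.73 to 0.86). It was 0.99 in members with 1 or 2 rule genes and 0.59 in those with 4 to 6. Adaptors and kinases upstream of interferon production were near the level of the others (ratio 1.08), with 1 of 9 at least 1.5-fold higher. That gene was Tlr3, the receptor for double-stranded RNA, at 135 and 88.5 CPM. Tmem173, which encodes STING, was at 312 and 316 CPM.

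Transcription factors that act after the receptors were higher: 5 of 6 above the level limit passed 1.5-fold. Stat2 was at 88.9 CPM in members and 15.5 in the others, a ratio of 5.73 (4.36 to 7.41), with UMIs in 39 of 146 members. Irf9, its DNA-binding partner, was 1.83-fold higher (1.41 to 2.35). Irf7, which amplifies type I interferon production, stayed below the level limit but had the highest ratio among these factors. It was detected in 47 members and 47 others, at 123 and 1.34 CPM, a ratio of 92.1 (64.5 to 133). It was also above the others in the members with 1 or 2 rule genes, at 24.4-fold (11.5 to 47.5).

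Sensors of nucleic acid were split. Zbp1, a sensor of Z-form nucleic acid, was detected in 40 members and 28 others, at 104 and 0.80 CPM, a ratio of 130 (83.9 to 205). The RNA sensors were less far apart: Ifih1 (MDA5) was 4.64-fold higher, Ddx58 (RIG-I) 3.20-fold and Dhx58 (LGP2) 5.71-fold. Cgas, the cytosolic DNA sensor, was 1.76-fold higher (1.32 to 2.31). Aim2, the inflammasome DNA sensor, was at 122 CPM in members and 111 in the others, and its interval of 0.88 to 1.35 included 1. Its relatives of the PYHIN family behaved otherwise in sum, at 310.4 CPM in members and 7.35 CPM in the others, a ratio of 42.3 (35.3 to 50.6). Ifi209, a PYHIN gene, had 72 UMIs in 37 members and was 18.1-fold higher. No PYHIN gene reached 10 CPM over all eligible barcodes, so none enters the counts at that limit.

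Antiviral effectors formed the longest list, with 33 of 40 genes at least 1.5-fold higher and a summed ratio of 2.96 (2.89 to 3.04). Ly6e, which limits coronavirus entry, was the most abundant, at 1669 CPM in members and 875 in the others (1.91-fold). Bst2 was at 700.0 and 148.7 CPM, a ratio of 4.71 (4.29 to 5.15), with UMIs in 114 members. Ifi27l2a, a small interferon-induced protein of the Ifi27 family, had UMIs in 60 members at 463 CPM, against 21.9 CPM in the others (21.2-fold). Slfn5, a Schlafen family gene, was detected in 55 members and 40.3-fold higher (32.0 to 50.5). Ifit1 was 80.6-fold and Rsad2 112-fold higher, with UMIs in 29 and 21 members. Slfn5, Ifit1 and Rsad2 stayed below the level limit and are not among the 40 genes counted. Rsad2 had 55 of its 57 UMIs in the 45 members with 4 to 6 rule genes. Eif2ak2, which encodes the kinase PKR, was 3.86-fold higher, and Adar, the RNA-editing enzyme, 2.73-fold. Ifi27, a relative of Ifi27l2a, was at 149 and 143 CPM.

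Genes of ISG15 conjugation, which attaches the ubiquitin-like protein ISG15 to other proteins, summed to a ratio of 4.19 (3.71 to 4.72). The ligase gene Herc6 was 4.59-fold higher and the conjugating enzyme gene Ube2l6 5.24-fold. Usp18, the protease that removes ISG15 and a brake on the IFNAR2 chain, had UMIs in 44 members and was 48.4-fold higher (34.5 to 67.9). Other brakes on interferon signalling had smaller ratios. Socs1, an inhibitor of JAK kinases, was 2.54-fold higher on 14 UMIs in members (1.37 to 4.33), and Socs3 stood at 0.91 (0.67 to 1.19).

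All 8 interferon-induced GTPases above the level limit were at least 1.5-fold higher in members, but 6 of them reached the limit without the members' UMIs, and Gbp2 and Gbp3 passed only through them. These proteins attack vacuoles that hold pathogens. Irgm1 was at 130 and 25.6 CPM (5.08-fold), Gbp2 at 80.7 and 9.24 CPM (8.73-fold) and Igtp at 109 and 35.5 CPM (3.08-fold). Iigp1, which stayed below the limit, had 31 UMIs in 13 members and was 113-fold higher (58.5 to 231). GBP, Schlafen and H2-Q genes have near copies, so the level of a single gene of these families is uncertain.

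Chemokines had the largest summed ratio after the PYHIN genes, 18.9 (17.9 to 19.9). It was 31.5 with the top 1% and 9.19 with the top 5% of barcodes as members, where the PYHIN ratio was 69.3 and 20.4. The chemokine UMIs lay in few members. Ccl12 was detected in more members than Cxcl10, Ccl5 or Cxcl13, but its top 10 members still held 70.3% of its UMIs. Ccl12, an attractant of monocytes, was at 1548 CPM in members and 114 in the others, with UMIs in 80 members. Its ratio was 13.6 (12.7 to 14.5), and 11.2 without the barcode that held 207 of its 1132 UMIs. Cxcl10, an attractant of T cells, had 450 UMIs in 14 members, 267 of them in 1 barcode. The ratio was 127 (107 to 152) and was 52.2 without that barcode. Ccl5 had 201 UMIs in 12 members, 66 in 1 barcode, with ratios of 29.6 and 20.1. In members with 1 or 2 rule genes, that 1 barcode held 66 of the 67 Ccl5 UMIs, and the other 77 members held 1. Cxcl10 was 6.75-fold higher there (3.31 to 12.4) on 11 UMIs. Cxcl13, a B cell attractant, had 155 of its 156 UMIs in 1 barcode, and its ratio of 258 became 1.67 without it. That barcode held 8958 UMIs, 4 rule genes, 129 UMIs of microglia markers and 1 UMI of the border macrophage, monocyte, dendritic and lymphocyte lists together.

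The chemokines overlapped in part. Of 14 members with Cxcl10, 13 also had Ccl12, 12 had Irf7 and 5 had Ccl5. Neither of the 2 members with Cxcl13 had Cxcl10.

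**Figure D3:**
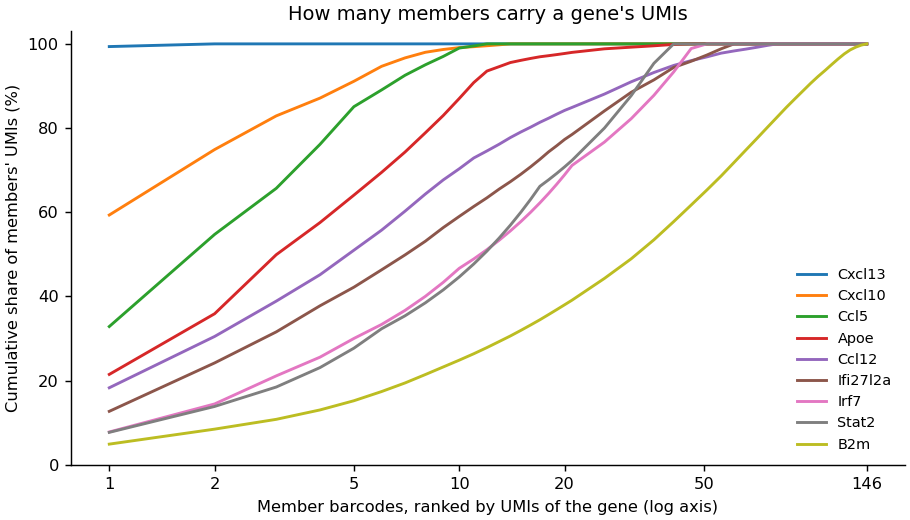
Cumulative share of a gene's UMIs in the 146 members (%) against the number of member barcodes, ranked by that gene's UMIs (log axis). Cxcl13 reaches 99.4% and Cxcl10 59.3% in the first barcode, and the curve of B2m, detected in 145 members, rises slowest.

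Antigen presentation by MHC class I was higher with a smaller ratio. The list of heavy chains, B2m and peptide loading genes summed to a ratio of 1.71 (1.67 to 1.76), and 11 of 19 genes passed 1.5-fold. B2m was at 2878 and 1758 CPM (1.64-fold), H2-K1 at 990 and 425 CPM (2.33-fold) and H2-D1 at 1191 and 571 CPM (2.08-fold). Tap1, a subunit of the peptide transporter, was 3.51-fold higher, and H2-Q7 10.4-fold (7.58 to 14.0). All 19 genes lay above 1. MHC class II genes had a ratio of 1.86 (1.69 to 2.04), but 1 barcode held 155 of their 470 UMIs. H2-Eb1 had UMIs in 3 members, 16 of 20 in 1 of them, and Cd74 had UMIs in 20 members, 75 of 147 in 1. H2-DMa, which loads peptide on class II molecules, was at 165 and 188 CPM.

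Genes of the resting microglial state were lower by small margins. All 16 homeostatic genes lay below 1, none of them by 1.5-fold, and their sum stood at 0.82 (0.82 to 0.83). Cst3, which encodes cystatin C, was at 37941 CPM in members and 48156 in the others (0.79). P2ry12, the ADP receptor, stood at 0.76 (0.72 to 0.79), Cx3cr1 at 0.82 (0.78 to 0.86) and Fcrls at 0.77 (0.72 to 0.82). Tmem119 stood at 0.96 (0.90 to 1.03). The summed ratio was 0.86 in members with 1 or 2 rule genes and 0.76 in those with 4 to 6. All CPM are shares of a group's UMIs, and the interferon genes outside the rule took 1.47% of members' UMIs and 0.41% of the others'.

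Disease-associated microglia genes, which microglia near plaques are known for, had a summed ratio of 1.05, with 3 of 15 genes at least 1.5-fold higher and 1 lower. Of the 15 genes, 7 lay above 1, with a median log2 ratio of -0.03. In members, Apoe gave 1533 of the list's 16567 UMIs. Trem2 stood at 0.88 (0.83 to 0.92), Tyrobp at 0.95, Ctsd at 0.87 and Ccl6, the gene that was lower, at 0.65 (0.53 to 0.80). Apoe, the lipid carrier, was at 2096 and 505 CPM, a ratio of 4.15 (3.93 to 4.37), but its UMIs were concentrated. The top 10 members for Apoe held 87.0% of them, and 9.59% of members had at least 10 Apoe UMIs, against 4.84% of the others. Csf1, the ligand of CSF1R, was 3.89-fold higher with UMIs in 31 members, and Cst7 2.26-fold with UMIs in 17. Axl, a receptor for apoptotic cells, stayed below the level limit and was 9.57-fold higher on 23 UMIs (5.85 to 15.0).

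Inflammatory genes under NF-kB were in between, with 7 of 17 at least 1.5-fold higher and a ratio of 1.67 (1.59 to 1.76). Ccl2 was 4.17-fold higher (3.36 to 5.12), Ccl4 2.93-fold with 80 of 262 UMIs in 1 barcode, Cxcl16 2.67-fold and Tnf 2.08-fold. Nfkb1 stood at 1.21 and Il6 at 1.19, with intervals that reached 1. Cdkn1a, which encodes the cell-cycle inhibitor p21, was at 174 and 78.9 CPM, a ratio of 2.20 (1.83 to 2.63), with UMIs in 42 members. It was 1.28-fold in members with 1 or 2 rule genes and 3.88-fold in those with 4 to 6. Proliferation genes had a ratio of 1.92, with Mki67 in 4 members and 36 of 72 Stmn1 UMIs in 1 barcode.

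Stress and autophagy lists stayed near the level of the other barcodes. Immediate early genes, which also respond to tissue dissociation, had a ratio of 1.01 (0.98 to 1.03), with Jun at 0.96 and Fos at 0.97. NRF2 target genes stood at 1.02, autophagy genes at 0.95 (0.89 to 1.00) and endoplasmic reticulum chaperones at 1.12 (1.06 to 1.18). Atg7 had 15 UMIs in members, 20.5 CPM against 17.3 in the others. It stood at 17.3 CPM in all eligible cKO barcodes and 11.5 in control, and a count of 3′ ends does not check the deletion.

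**Figure D4:**
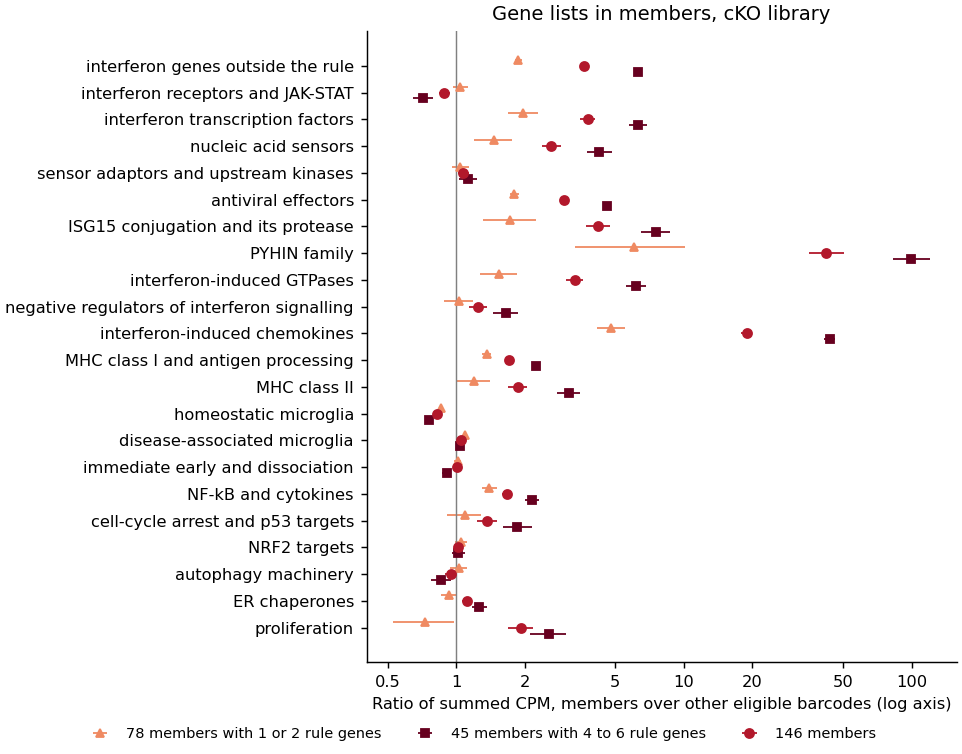
Ratio of summed CPM, members over other eligible cKO barcodes, for each gene list with a UMI in members (log axis), with exact 95% intervals that cover counting error only. Interferon output lists lie to the right of 1 and further right in members with 4 to 6 rule genes, while homeostatic genes lie left of 1 in all 3 groups of members.

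The genes lowest in members, named by the lowest upper bound of the ratio, were Ttr, Ranbp6, Bin3, Sap30bp, Enpp2, Selenoo, S1pr1, Cpsf4, Ss18l2 and Lix1. They were chosen by this ratio, so their low values describe the choice and are no test. Apart from Ttr and S1pr1, they had 0 to 7 UMIs each in members. Ttr, the transthyretin gene of the choroid plexus, was at 90.2 CPM in members and 378 in the others (0.24), but 3 barcodes held 87.9% of its UMIs in members. With the top 5% as members its ratio was 1.26, and with at most 5% mitochondrial UMIs 1.07, so its direction depends on the cut. Enpp2, which encodes autotaxin and is also abundant in choroid plexus, had 3 UMIs in members and 793 in the others, which lay in 33 barcodes. S1pr1, a sphingosine-1-phosphate receptor, rested on more barcodes, with UMIs in 21 members at 41.0 and 95.1 CPM (0.43, 0.29 to 0.62). Ranbp6 had no UMI in members and 11.6 CPM in the others.

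The same score was computed in the control library, which was sequenced to fewer UMIs per barcode. Of 6633 control barcodes 511 were eligible, with a median of 2423 UMIs, against 4890 in the eligible cKO barcodes. The cKO cut was passed by 17 of them (3.33%, exact binomial interval 1.95% to 5.27%). Only 12 of the 511 held at least 2 rule UMIs, so some of the 17 passed the cut on 1. After each eligible barcode was thinned to 2000 UMIs, at least 2 rule UMIs were found in 1.44% of cKO barcodes (1.18% to 1.74%) and 1.76% of control barcodes (0.81% to 3.32%). Without thinning the shares were 3.90% and 2.35%. The 2542 cKO and 6122 control barcodes that were not eligible did not enter. Thinned to 1000 UMIs, which let in 5655 control and 8331 cKO barcodes, the shares were 0.76% and 0.82%. For at least 4 rule UMIs the shares were 0.49% in cKO (0.35% to 0.68%) and 1.17% in control (0.43% to 2.54%) at 2000 UMIs, and 0.25% and 0.37% at 1000. At each depth and minimum the intervals of the libraries overlapped. Neither genotype has a replicate, and these shares use the rule genes.

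In the 17 control barcodes the interferon list outside the rule was 2.63-fold above the remaining 494 (2.38 to 2.89) and the chemokines 10.0-fold (7.84 to 12.7). UMIs were found there for 10 of the 20 leading genes, among 43207 UMIs in total. Ifi207, Rsad2, Ifit3b and Iigp1 had 1 UMI each. One of the 17 held 314 of the 332 MHC class II UMIs, and the 17 together had 5 dendritic, 7 monocyte and 4 border macrophage marker UMIs, against 4, 10 and 6 in the remaining 494. The part of such cells in the control values was not tested. Over all eligible barcodes the interferon list stood at 4263 CPM in cKO and 4235 CPM in control, a ratio of 1.01 (0.98 to 1.03).

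Bulk RNA of 5xFAD forebrain was used to ask whether the same genes differed between genotypes in a replicated comparison. Of 118 interferon genes outside the rule in the bulk table, 93 were tested, and edgeR's quasi-likelihood test called 0 at an adjusted p of 0.05. DESeq2 also called 0, and 4 had an unadjusted p under 0.05. Over all 16956 genes tested, 0.277% fell and 0.0531% rose in cKO. The median log2 change of the 93 genes was 0.03, with a range of -0.48 to 0.72, beside 0.00 for all genes, and the smallest adjusted p by edgeR was 0.578. Of the 20 leading genes, 12 were tested and none was called, with 0 at an unadjusted p under 0.05. Microglia are a small part of forebrain, and in bulk RNA fewer cells of a type and less RNA per cell cannot be told apart.

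Single genes of the bulk libraries showed overlapping groups. Irf7 ran from 1.55 to 3.57 CPM (median 2.63) in the 6 control and from 2.38 to 4.33 CPM (median 3.06) in the 7 cKO libraries, with a log2 change of 0.29 (SE 0.19). Ly6e and Adar, the interferon genes at the highest level, changed by 0.02 (SE 0.05) and 0.00 (SE 0.05). Irf8, a microglial transcription factor, was the 1 gene called of 11 tested in the list of sensor adaptors, and its groups did not overlap. How many of all genes tested also had groups without overlap was not counted. Irf8 ran from 7.35 to 9.41 CPM in control and from 5.14 to 6.33 CPM in cKO, a log2 change of -0.47 (SE 0.10, adjusted p by edgeR 0.0304). The call was lost with the replicate number as a block (adjusted p by edgeR 0.103) and without any 1 of control 3, 4, 5 or 6 or of cKO 1, 2, 3, 4, 6 or 7 (0.0536 to 0.131). It was kept without control 1 or 2 or cKO 5, with median-ratio scaling, without the filter and by DESeq2 (adjusted p by DESeq2 0.0023). The log2 change was -0.50 to -0.43 over all these fits. In the same libraries 8 of 16 homeostatic microglia genes fell and none rose, and the part of microglial number in the values of Irf8 was not tested. Cx3cr1 was among these 8, and only the cKO mice carried Cx3cr1CreER. In members, Irf8 was at 681 CPM, against 597 CPM in the other eligible barcodes.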

How the data were processed

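The single-cell matrices deposited by the authors hold UMI counts. Per the file headers they were made with Cell Ranger 6.1.0, and per the labels the libraries are 3′ libraries of 10x Genomics. The bulk table deposited by the authors holds read counts per gene. The submitters' processing notes name featureCounts 1.5.0-p3, HISAT2 2.0.5 and the mm10 build for it. For the bulk counting, strand setting and annotation release: not given in the sources used here. Reads of overlapping and antisense genes therefore cannot be told apart there. Gene positions and promoters are on GRCm38, the assembly also called mm10.

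The members and gene lists were chosen with earlier results of these data known. UMIs were summed over members and over the other eligible barcodes with NumPy 2.4.6 and given as CPM. Ratio, Poisson and Clopper-Pearson intervals (SciPy 1.17.1) are exact at 95% and cover counting error only. The ratio interval was tested on simulated data with counting error alone, so that test does not cover uneven UMIs among barcodes. No doublet caller was run, so doublets may remain. Genes were counted as higher or lower at 1.5-fold among genes with at least 10 CPM over all eligible barcodes. The text names the 20 genes with the highest lower bound of the ratio and at least 10 UMIs in members, the 10 with the lowest upper bound, and list genes by role and UMI number.

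Bulk counts were tested in R 4.3.3 with edgeR 4.0.16 (filterByExpr, TMM, robust quasi-likelihood test of genotype, two-sided, Benjamini-Hochberg adjustment over all genes tested), with DESeq2 1.42.0 as an alternative. Totals ran from 16658707 to 22355512 counts per library. The procedure was tested on simulated data. The alternatives changed the UMI minimum, the top share, the score, the barcodes compared, the CPM limit, the bulk scaling, filter and tool, and left out each bulk library in turn.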

Additional observations from a re-analysis of the deposited data

How the results depend on the processing

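The interferon ratio outside the rule (3.63) stayed above 1 in every alternative for the single cells. It was 3.73 with a minimum of 4000 UMIs, 5.12 with the top 1% and 2.26 with the top 5% as members, 3.48 with a score without Ifitm3 and 4.11 with a score on barcodes thinned to 2000 UMIs. The count of genes 1.5-fold higher (377) was 665 with the top 1%, 140 with the top 5%, 614 at a limit of 5 CPM and 203 at 20 CPM. The count 1.5-fold lower (649) was 1225, 172 and 326 with the top 1%, the top 5% and 20 CPM; the cause was not tested, except that the CPM limits change the genes counted. Leaving out barcodes with immune-cell markers, Csf3r not counted, was chosen after seeing the data. Ttr turned to 1.26 with the top 5% and 1.07 with at most 5% mitochondrial UMIs. The 4 erythroid marker UMIs of members fell to 0 without the barcodes that held immune-cell markers.

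The bulk count of interferon genes called was 0 in every alternative, including 0 with the replicate block. Whether numbers shared by control and cKO libraries pair them was not settled. The correlation of their deviations from the group means ran from -0.37 to 0.18 over 6 pairs, with 3 over 0.1. Such deviations sum to 0 within a group, so low correlations cannot exclude pairs. Without 1 library at a time, the log2 change of Adar ran from -0.019 to 0.029 and that of Ly6e from -0.0016 to 0.044. For rare genes depth is the limit: 5 of the 20 leading genes had under 20 UMIs in members.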
